A study of Rattus norvegicus with 9 samples.

Results

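Krt28, Vwc2l and Amigo3 are 3 of the 20413 genes measured by RNA sequencing in rat lumbar dorsal root ganglia. They were selected on these same libraries: their FPKM (sequenced fragments counted for a gene, corrected for its length and for library size) lay below every control value in all ischemia libraries, with or without electroacupuncture. The levels against control are therefore given as a description, without a test. The animals were young adult male Sprague Dawley rats, with 3 libraries in each of 3 groups, named here as in the labels. Con rats were sham animals, anesthetized and fitted with a cut ring that left the blood flow open. CPIP (chronic post-ischemia pain) rats had the blood flow of the right hind paw stopped for hours by a tight O-ring and then released, a model of complex regional pain syndrome type I. CPIP+EA rats underwent the same ischemia and then electroacupuncture, a weak current through needles at the ST36 and BL60 points of both legs, once daily for 10 days. In all groups the L4-6 ganglia of the right side were collected at day 10 after perfusion with saline. For electroacupuncture the rats were loosely immobilized. No sham needling or matching restraint of the Con or CPIP rats is described in the sources used here. Restraint, needling and current therefore cannot be told apart in the CPIP+EA group.

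The dorsal root ganglion holds the cell bodies of sensory neurons, wrapped by satellite glia, beside Schwann cells, vessels and connective tissue. The 3 genes belong to unrelated families. Keratins are the intermediate filament proteins of epithelia and hair, and Krt28 encodes a type I keratin known from the inner root sheath of the hair follicle. Vwc2l encodes a secreted protein with von Willebrand factor C domains, related to Vwc2 (Brorin), which binds bone morphogenetic proteins (BMPs) and blocks their signaling. Amigo3 encodes a membrane protein with leucine-rich repeats (LRR) and an immunoglobulin domain. The AMIGO proteins act in adhesion and neurite growth, Amigo1 is a partner of Kv2 potassium channels, and Amigo3 can bind the Nogo receptor complex in the place of Lingo1.

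The libraries were alike in their totals, with summed FPKM from 445600 to 482900 and between 18279 and 18456 genes above 0. The 15 sensory neuron markers were all expressed, with a summed level of 10460 to 12700 FPKM in Con, 10660 to 11180 in CPIP and 10060 to 12280 in CPIP+EA, and 0 of the 15 passed the thresholds in any comparison. The sum is carried by a few abundant genes and does not describe each marker. Of the 15, 4 lay below every Con value in all 6 ischemia libraries, as the 3 genes did: Rbfox3 (46.7 FPKM in the lowest Con library, 42.9 in the highest other), Scn10a (62.3 and 57.8), Snap25 (610 and 605) and Prdm12 (25.49 and 25.46). Tubb3 and Prph lay above every Con value in all 6. These genes were named after their values were seen. Markers of axon injury such as Atf3 and Sprr1a moved with the ischemia. Their sum was 381 to 410 FPKM in Con, 1133 to 1378 in CPIP and 1260 to 1445 in CPIP+EA, and 11 of 12 were called higher in each ischemia group. Replicate 3 of CPIP+EA held the highest sums of erythroid (5049 FPKM), neutrophil (592 FPKM) and macrophage (190 FPKM) markers. Skeletal muscle markers summed to 15.4 to 18.2 FPKM in Con, 12.7 to 109.5 in CPIP, highest in replicate 2, and 16.3 to 39.2 in CPIP+EA, with 0 of the 7 tested markers called and a median log2 difference from Con of 0.89 in CPIP and 0.77 in CPIP+EA. Fibroblast markers summed to 978 to 1311 FPKM in Con, 836 to 1108 in CPIP and 555 to 1109 in CPIP+EA, with 0 of 6 called and a median log2 difference from Con of -0.19 in CPIP and -0.60 in CPIP+EA. The fibroblast gene Lum, named after its values were seen, was at 105.3 to 119.5 FPKM in Con, 80.6 to 83.4 in CPIP and 56.2 to 91.3 in CPIP+EA, and so lay below Con in all ischemia libraries. Schwann cell markers summed to 7207 to 11420 FPKM in Con, 6857 to 12200 in CPIP and 4819 to 9557 in CPIP+EA, with 0 of 9 called and a median CPIP+EA minus CPIP difference of -0.47. Satellite glia markers summed to 3644 to 3771 FPKM in Con, 3811 to 4151 in CPIP and 4051 to 4232 in CPIP+EA. Their most abundant gene carries that sum, 0 of 7 were called, and the median log2 difference from Con was 0.02 in CPIP and -0.05 in CPIP+EA. Central nervous system markers summed to 52.64 to 57.85 FPKM in Con, 55.14 to 57.53 in CPIP and 64.56 to 68.6 in CPIP+EA. Of these, 0 of the 5 tested were called. The part of all these markers in the levels of the 3 genes was not tested. In bulk tissue, fewer cells of a type and less RNA per cell cannot be told apart.

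Krt28 (gene ID 360623) lies on chromosome 10 with 2 RefSeq transcripts. Its start is shown because this was the only window among the 3 genes that held a TATA box motif. The 250 bases before the annotated start, at chr10:84824858-84825107 on the minus strand of GRCr8 (RefSeq), carry TATAAA, in capitals, with its first base at position -36 from the start.
Krt28 upstream: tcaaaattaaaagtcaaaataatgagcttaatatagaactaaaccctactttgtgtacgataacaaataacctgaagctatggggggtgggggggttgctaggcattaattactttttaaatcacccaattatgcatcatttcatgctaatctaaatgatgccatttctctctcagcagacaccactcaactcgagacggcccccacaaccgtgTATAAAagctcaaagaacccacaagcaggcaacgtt
TATAAA occurred on either strand in 14.2% of 33469 RefSeq windows of the same length (250 bases before to 50 after a start), so the match is a description and not a site.

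Krt28 had 6.09, 6.44 and 6.41 FPKM in the Con libraries. It had 3.84, 3.22 and 3.56 FPKM in CPIP and 4.06, 3.60 and 3.97 FPKM in CPIP+EA. The lowest Con library stood above the highest ischemia library, and the CPIP and CPIP+EA libraries overlapped. The mean was 6.31 ± 0.194 FPKM (SD, n = 3) in Con, 3.54 ± 0.310 in CPIP and 3.88 ± 0.244 in CPIP+EA, so that CPIP held 56.1% and CPIP+EA 61.4% of the Con level. On the log2(FPKM + 0.5) scale the CPIP minus Con difference was -0.76 and the CPIP+EA minus Con difference was -0.64. In Con, Krt28 stood above 46.8% of the 17187 genes tested on the FPKM scale, and in CPIP above 35.6%, so its level was in the middle of the range and not near 0.

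The other keratins did not share this pattern of values. Of 46 keratin genes in the table other than Krt28, 22 were high enough to be tested, 0 were called in any comparison, and their median CPIP minus Con difference was 0.02 (log2), beside -0.01 over all genes. Krt27, the neighbor of Krt28 and like it an inner root sheath keratin, had 0.47, 0.74 and 0.81 FPKM in Con, 0.39, 0.61 and 0.47 FPKM in CPIP and 0.52, 0.60 and 0.41 FPKM in CPIP+EA, and its groups overlapped. Krt26, also of the inner root sheath, was at 2.50 ± 0.480 FPKM in Con (SD, n = 3), 1.94 ± 0.411 in CPIP and 2.20 ± 0.162 in CPIP+EA, with a CPIP minus Con difference of -0.30 (limma, adjusted p = 0.688). Krt10, the neighbor on the other side and a keratin of upper epidermis, gave 0.23 (adjusted p = 0.776, limma). Among the keratins with a mean of at least 1 FPKM, Krt7 of simple epithelia had the smallest p in that comparison, with 4.46 ± 0.621 FPKM in Con against 6.05 ± 0.504 in CPIP (log2 difference 0.41, limma adjusted p = 0.239). Krt8, Krt19 and Krt222 gave 0.24, -0.02 and -0.12 with limma adjusted p of 0.776, 0.998 and 0.904.

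As Krt28 is known from hair, markers of skin were read beside it. Of 17 epidermis and hair follicle markers in the table, 16 were under 1 FPKM in every library. Their summed level was 4.21 to 5.02 FPKM in Con, 4.15 to 5.04 in CPIP and 4.40 to 4.47 in CPIP+EA, so it did not separate the groups as Krt28 did. On the FPKM scale Krt28 alone exceeded the sum of all of them in each Con library and lay below that sum in each ischemia library. The RefSeq gene model of Krt28 overlaps a long noncoding RNA, LOC108352132, which was not analysed here, and type I keratins are alike in sequence, so some reads of this gene may be shared.

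**Figure D1:**
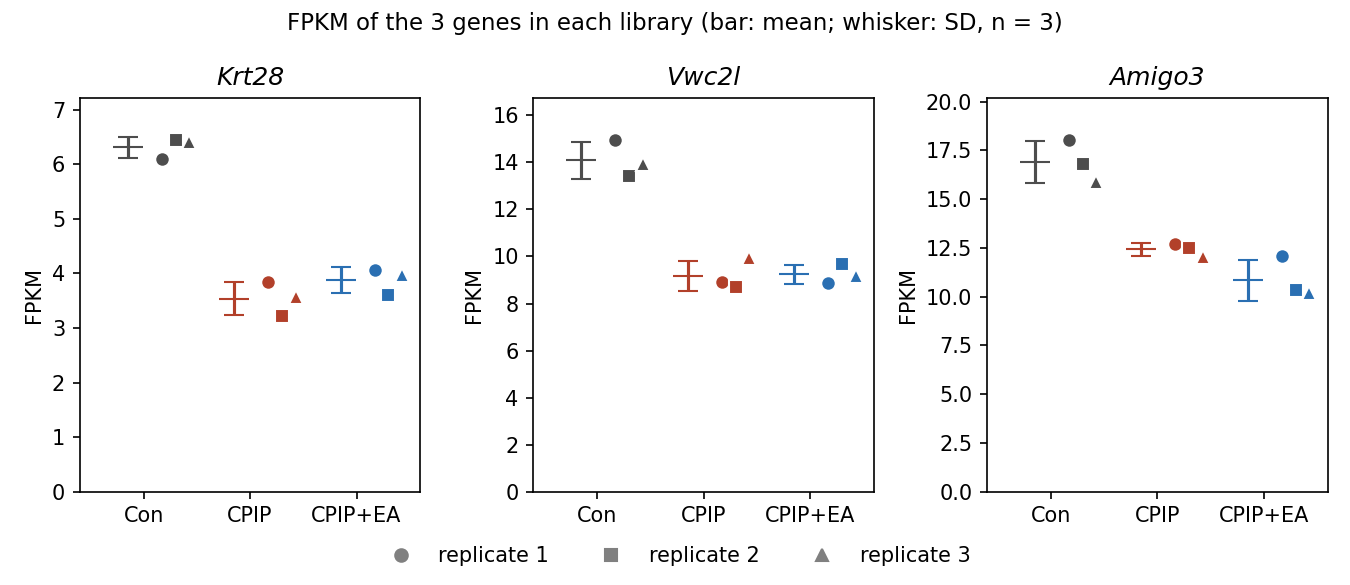
FPKM of Krt28, Vwc2l and Amigo3 (vertical axes, from 0) in the 3 libraries of each group; symbols are single libraries and the bar with whiskers is the mean with its SD. All Con points lie above all others, with lowest Con values of 6.09, 13.40 and 15.87 FPKM against highest other values of 4.06, 9.92 and 12.70 FPKM.

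Vwc2l (gene ID 501160) lies on chromosome 9, with 4 RefSeq transcripts over 194758 bases. It had 14.94, 13.40 and 13.93 FPKM in Con. The CPIP libraries had 8.90, 8.69 and 9.92 FPKM and the CPIP+EA libraries 8.88, 9.68 and 9.17 FPKM. Both ischemia groups covered nearly the same range, and neither reached Con. The means were 14.1 ± 0.782, 9.17 ± 0.658 and 9.24 ± 0.405 FPKM (SD, n = 3), which put CPIP at 65.1% and CPIP+EA at 65.6% of Con. The log2 difference from Con was -0.59 in CPIP and -0.58 in CPIP+EA. Its closest relative Vwc2 was low in the ganglion, at 0.48, 0.94 and 0.86 FPKM in Con, 1.58, 0.90 and 0.92 FPKM in CPIP and 1.18, 1.81 and 1.06 FPKM in CPIP+EA. The Vwc2 values pointed the other way, with a CPIP minus Con difference of 0.37 that did not pass the test (limma, adjusted p = 0.771). The genes on either side of Vwc2l were Spag16, at 0 to 0.15 FPKM, and Bard1, a partner of Brca1 in DNA repair, with a CPIP minus Con difference of -0.07. Bard1 had 0.51, 0.73 and 0.59 FPKM in Con, 0.53, 0.66 and 0.49 FPKM in CPIP and 0.82, 0.99 and 0.95 FPKM in CPIP+EA. Its CPIP+EA libraries stood above all others, with a CPIP+EA minus CPIP difference of 0.42 and a CPIP+EA minus Con difference of 0.36, neither past the threshold (limma, adjusted p = 0.997 and 0.277).

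Amigo3 (gene ID 316003) is annotated on chromosome 8 as a single span of 1527 bases, which is 509 codons with no untranslated part, so the window before it is not upstream of a known transcription start. The 30 bases around the annotated start are shown to make this visible, at chr8:117620487-117620516 on the plus strand of GRCr8 (RefSeq), with the first codon in capitals.
Amigo3 start: gtggtcactgccATGgcctggttggtgcta
Amigo3 had 18.02, 16.79 and 15.87 FPKM in Con. It had 12.70, 12.51 and 12.05 FPKM in CPIP and 12.06, 10.33 and 10.17 FPKM in CPIP+EA. Here CPIP+EA was the lowest group, and it met the CPIP range only through its replicate 1, which lay just above replicate 3 of CPIP. The means were 16.9 ± 1.08, 12.4 ± 0.334 and 10.9 ± 1.05 FPKM (SD, n = 3), or 73.5% of Con in CPIP and 64.3% in CPIP+EA. The log2 difference from Con was -0.43 in CPIP and -0.62 in CPIP+EA.

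Amigo3 shares its place in GRCr8 with Gmppb, which makes GDP-mannose for glycosylation, and Rnf123, a ubiquitin ligase subunit. Strand use in counting is not given in the sources used here, so reads of the 3 genes may be shared and the level of Amigo3 is uncertain to that extent. Gmppb had 7.52, 8.25 and 6.86 FPKM in Con, 6.90, 7.0 and 9.27 FPKM in CPIP and 9.88, 8.60 and 7.53 FPKM in CPIP+EA. Rnf123 had 20.26, 21.83 and 20.88 FPKM in Con, 20.22, 21.15 and 19.20 FPKM in CPIP and 20.26, 18.35 and 20.08 FPKM in CPIP+EA. Neither gene separated Con from the ischemia groups as Amigo3 did. Their CPIP minus Con differences were 0.02 and -0.06 (limma, adjusted p = 0.988 and 0.925), and their CPIP+EA minus Con differences 0.18 and -0.10 (limma, adjusted p = 0.652 and 0.590). Ip6k1, the next gene on one side, gave -0.07 in CPIP against Con, and Mst1, on the other side, was at 0.22 to 0.69 FPKM.

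**Figure D2:**
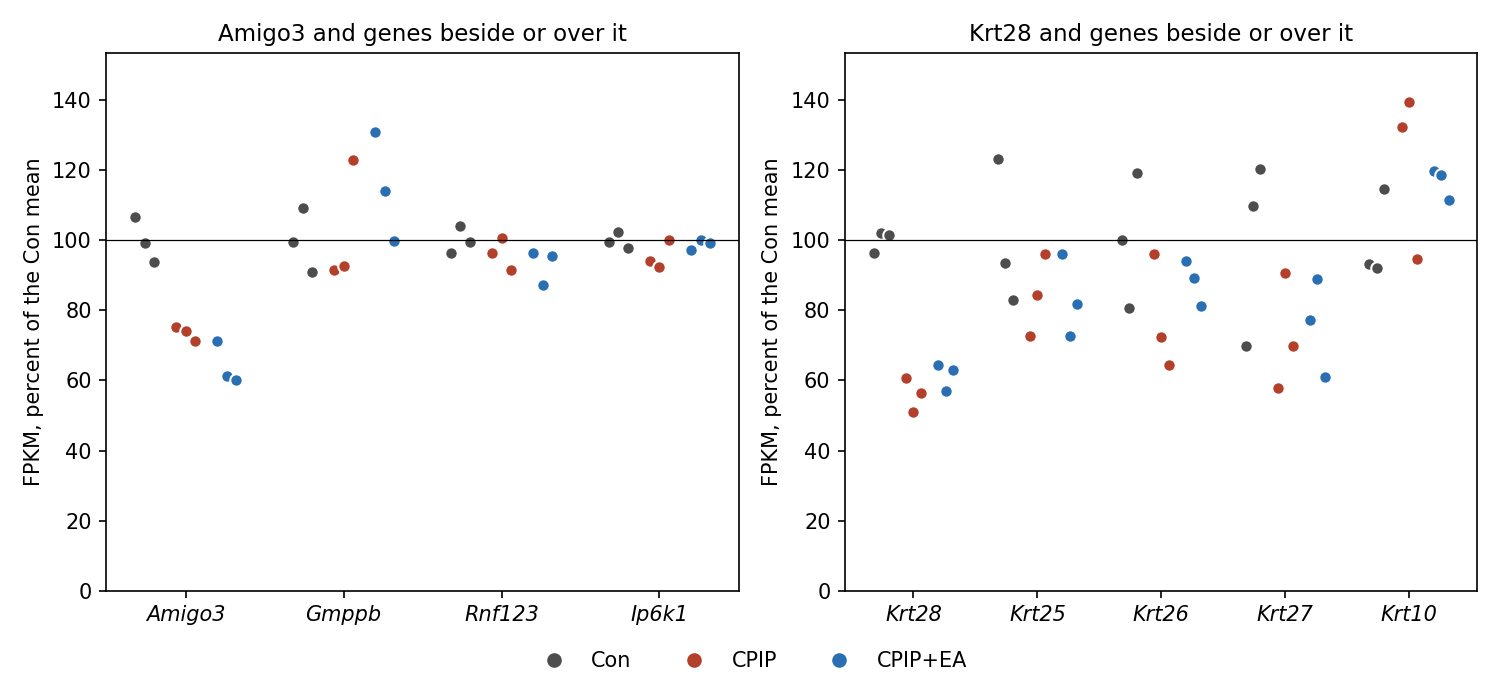
FPKM as percent of the Con mean (vertical axis) in each library for Amigo3 with Gmppb, Rnf123 and Ip6k1 (left) and for Krt28 with other keratins of its cluster (right); each point is 1 library and colors mark the groups. The mean of Amigo3 was at 73.5% in CPIP and 64.3% in CPIP+EA, and that of Krt28 at 56.1% and 61.4%, while the ischemia points of every other gene shown overlap or meet its Con points.

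The other AMIGO genes were also lower in the ischemia groups, without passing the test. Amigo1, the Kv2 partner, had 42.23, 39.59 and 35.08 FPKM in Con, 31.30, 31.48 and 31.82 FPKM in CPIP and 33.34, 35.20 and 29.61 FPKM in CPIP+EA. Its CPIP libraries all lay under Con, while CPIP+EA replicate 2 passed the lowest Con library. Its log2 difference in CPIP against Con was -0.30 (limma, adjusted p = 0.239). Amigo2 had 6.70, 6.18 and 5.46 FPKM in Con, 5.71, 4.90 and 4.78 FPKM in CPIP and 5.85, 5.21 and 4.37 FPKM in CPIP+EA, with overlapping groups and a difference of -0.23 (limma, adjusted p = 0.700). On the FPKM scale Amigo1 was the highest AMIGO gene, Amigo3 the next and Amigo2 the lowest in every library.

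Set side by side on the FPKM scale, Amigo3 was the highest and Krt28 the lowest of the 3 genes in every library. Amigo3 and Vwc2l did not overlap in any group, with the nearest values 15.87 and 14.94 FPKM in Con, 12.05 and 9.92 FPKM in CPIP and 10.17 and 9.68 FPKM in CPIP+EA. The spread within a group was small for each gene, with coefficients of variation from 2.69% (Amigo3 in CPIP) to 9.66% (Amigo3 in CPIP+EA). Over all 9 libraries the log2 levels correlated at Pearson r = 0.93 for Krt28 with Vwc2l, 0.86 for Krt28 with Amigo3 and 0.87 for Vwc2l with Amigo3, as the selection on the same group difference requires. After subtraction of the group means these values were -0.26, 0.16 and -0.19. With 3 libraries a group, these values are too uncertain to tell whether the 3 genes follow each other within groups.

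Lying below Con in all 6 ischemia libraries was not rare, since 554 of 17187 genes tested (3.22%) had that pattern. Among the 506 of them with a mean of at least 1 FPKM, ordered by the ratio of the lowest Con value to the highest other value, Krt28 was at place 3 with a ratio of 1.5, Vwc2l at 9 with 1.35 and Amigo3 at 16 with 1.25. The genes just inside this order were Pde6d, at 35.04 against 35.03 FPKM, and Fgfr1, at 78.33 against 78.32 FPKM. Just outside were Anks6, at 6.01 FPKM on both sides, and Arc, at 1.18 FPKM on both sides. A gene was called changed at a limma adjusted p under 0.01 with a fold of at least 1.5 in either direction. In CPIP against Con, 61 genes were called (0.355% of those tested), of which 2 (0.0116%) were lower. In CPIP+EA against Con, 83 genes were called (0.483%), of which 1 (0.00582%) was lower. As Krt28, Vwc2l and Amigo3 were chosen on these contrasts, nothing is read about them from these counts or from their places in the order above. With 1 library left out, the calls ran from 30 to 62 in CPIP against Con, of which 0 to 4 were lower, and from 35 to 82 in CPIP+EA against Con, of which 0 to 4 were lower. Leaving out any Con library, CPIP replicate 2 or CPIP replicate 3 lowered the 61 calls to between 30 and 38, and leaving out any Con library, CPIP replicate 2 or CPIP+EA replicate 2 lowered the 83 calls to between 35 and 54.

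The comparison of CPIP+EA with CPIP asks whether the levels differed with electroacupuncture. The choice used the same 6 libraries without regard to which group they came from, but it required all of them to lie below Con, so a gene brought back to the Con level could not be among the 3 and the comparison covers only differences below it. None of the 3 genes was called, beside 0 of 17187 genes called in all (0.0%) and 738 at an unadjusted p under 0.05 (4.29%). Krt28 was 0.12 higher in CPIP+EA on the log2 scale (95% interval -0.09 to 0.32), Vwc2l 0.01 higher (-0.16 to 0.19) and Amigo3 -0.19 (-0.37 to -0.01), with a limma adjusted p of 0.997 for each. Amigo3 was the 1 gene of the 3 whose unadjusted limma p was under that threshold. The exact two-sided permutation test over the 6 libraries gave p = 0.2 for Krt28, 0.9 for Vwc2l and 0.2 for Amigo3, where the smallest p that 3 against 3 libraries allow is 0.1. As ratios of CPIP+EA to CPIP, the intervals reached from 0.939 to 1.25 for Krt28, from 0.895 to 1.14 for Vwc2l and from 0.772 to 0.995 for Amigo3. Without CPIP+EA replicate 3, the library with the most blood cell RNA, the log2 differences were 0.10, 0.02 and -0.15. The difference of Krt28 was 0.06 without CPIP replicate 2 and 0.17 without CPIP replicate 1, and that of Amigo3 was -0.27 without CPIP+EA replicate 1, its highest library of that group. That of Vwc2l was near 0 throughout, from -0.02 without CPIP replicate 2 to 0.07 without CPIP replicate 3.

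**Figure D3:**
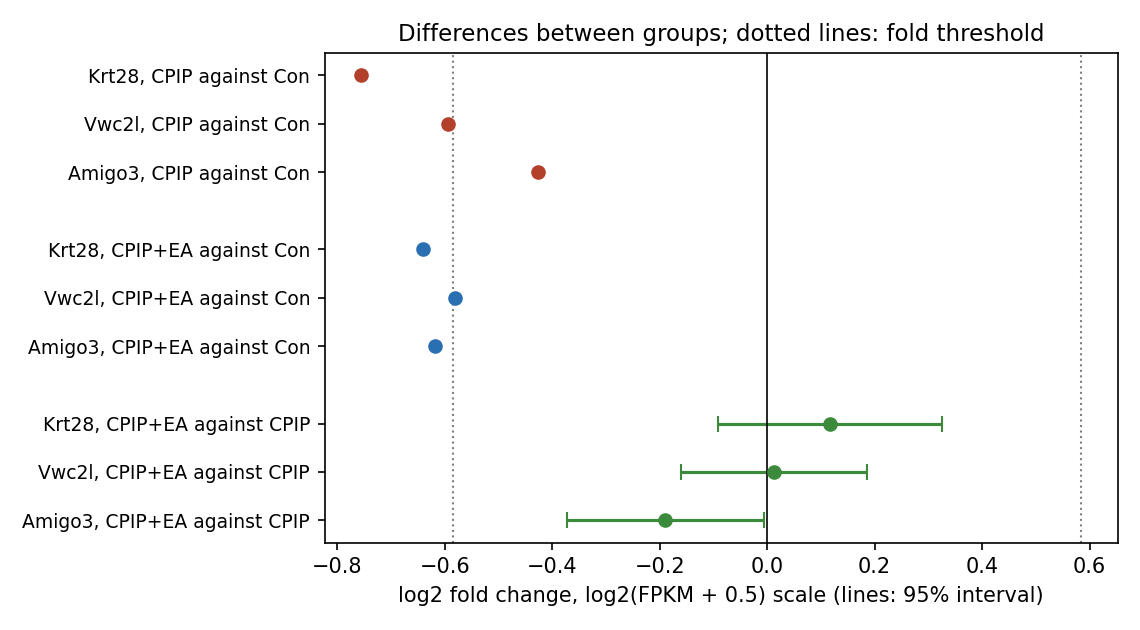
Log2 fold change of the 3 genes in each comparison (horizontal axis, log2(FPKM + 0.5) scale), with points for the estimate and, for CPIP+EA against CPIP, lines for the 95% interval; dotted lines mark a fold of 1.5 in either direction. The 6 differences from Con lie between -0.76 and -0.43, and the CPIP+EA minus CPIP differences are 0.12, 0.01 and -0.19.

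Genes that work with these families were described from lists of keratins and other filaments, BMP antagonists, BMP ligands, receptors and Smads, AMPA receptor partners, the Nogo receptor complex, Kv2 channels and LRR adhesion proteins. Of 160 tested genes in them, 1 was called in CPIP against Con (0.625%), 0 in CPIP+EA against CPIP and 2 in CPIP+EA against Con (1.25%). All of these calls were higher. Flrt3, an LRR adhesion protein, had 6.71 ± 0.705 FPKM in Con, 21.9 ± 3.17 in CPIP and 25 ± 3.76 with electroacupuncture (SD, n = 3), a log2 difference of 1.63 in CPIP (limma, adjusted p = 0.000679) and 1.82 in CPIP+EA (limma, adjusted p = 0.000289) against Con. It is thus of the same broad protein class as Amigo3 and had the opposite direction. Smad1, which carries the BMP signal to the nucleus, was at 8.88 ± 0.663 FPKM in Con, 13.6 ± 1.09 in CPIP and 14.4 ± 0.961 with electroacupuncture (SD, n = 3), and was called in CPIP+EA only (log2 0.67, limma adjusted p = 0.00671), with adjusted p = 0.0184 in CPIP by limma. The call in CPIP+EA held in 9 of 21 alternative settings, with limma adjusted p from 0.00538 with a robust trend to 0.0377 with a replicate block. Whether the CPIP and CPIP+EA differences of Smad1 differ is answered by their own comparison, 0.08 with limma adjusted p = 0.997.

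Among the related genes, 21 (13.1%) lay below Con in all 6 ischemia libraries, beside the 3.22% of all genes, and 26 (16.3%) were under an unadjusted p of 0.05 in CPIP against Con, 21 of them lower. Over all genes tested, 1489 (8.66%) were under that p in the same comparison, 697 of them lower. The Kv2 channels and their modifier subunits had the lowest list median apart from the 2 AMIGO genes, at -0.21 over 12 genes in CPIP against Con and -0.10 in CPIP+EA against CPIP. Kcns3, a modifier subunit, fell short of the call with 39.3 ± 2.10 FPKM in Con, 24.8 ± 3.61 in CPIP and 25.3 ± 3.60 with electroacupuncture (SD, n = 3, log2 -0.66, limma adjusted p = 0.0566). Kcns1, another modifier, gave -0.43 (limma, adjusted p = 0.121). The BMP antagonists had a median of -0.04 over 20 genes, with the abundant Fstl1 at -0.23 and Nbl1 at -0.03 (limma, adjusted p = 0.572 and 0.975). Nog (noggin), named after its value was seen, was at 3.23 ± 0.872 FPKM in Con and 1.67 ± 0.121 in CPIP, a log2 difference of -0.76 (limma, adjusted p = 0.147).

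The BMP ligands, receptors and Smads had a median of -0.05 over 27 genes, where Id3, a target of BMP signaling, gave 0.14 and the receptor Bmpr2 -0.20 (limma, adjusted p = 0.809 and 0.571). In the Nogo receptor list, the median was -0.05 over 18 genes. Rtn4, which encodes Nogo itself and is among the most abundant genes of the list, gave 0.11 (limma, adjusted p = 0.904). Lingo1, named here because Amigo3 can take its place in the receptor, was at 26.1 ± 3.52 FPKM in Con, 23.0 ± 0.411 in CPIP and 20.5 ± 3.96 with electroacupuncture (SD, n = 3), with -0.17 in CPIP against Con (limma, adjusted p = 0.864). On the FPKM scale it was above Amigo3 in the mean of each group. AMPA receptor partners had a median near 0 over 23 genes, with Nrn1 at -0.20 and Olfm1 at -0.04 (limma, adjusted p = 0.277 and 0.973). The LRR adhesion list had -0.07 over 27 genes, with Lrrn1 at -0.16 and Lrrn3 at -0.40 (limma, adjusted p = 0.885 and 0.707). The neurofilaments Nefl and Nefm, the main filaments of these neurons, gave -0.24 and -0.30 (limma, adjusted p = 0.714 and 0.619).

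**Figure D4:**
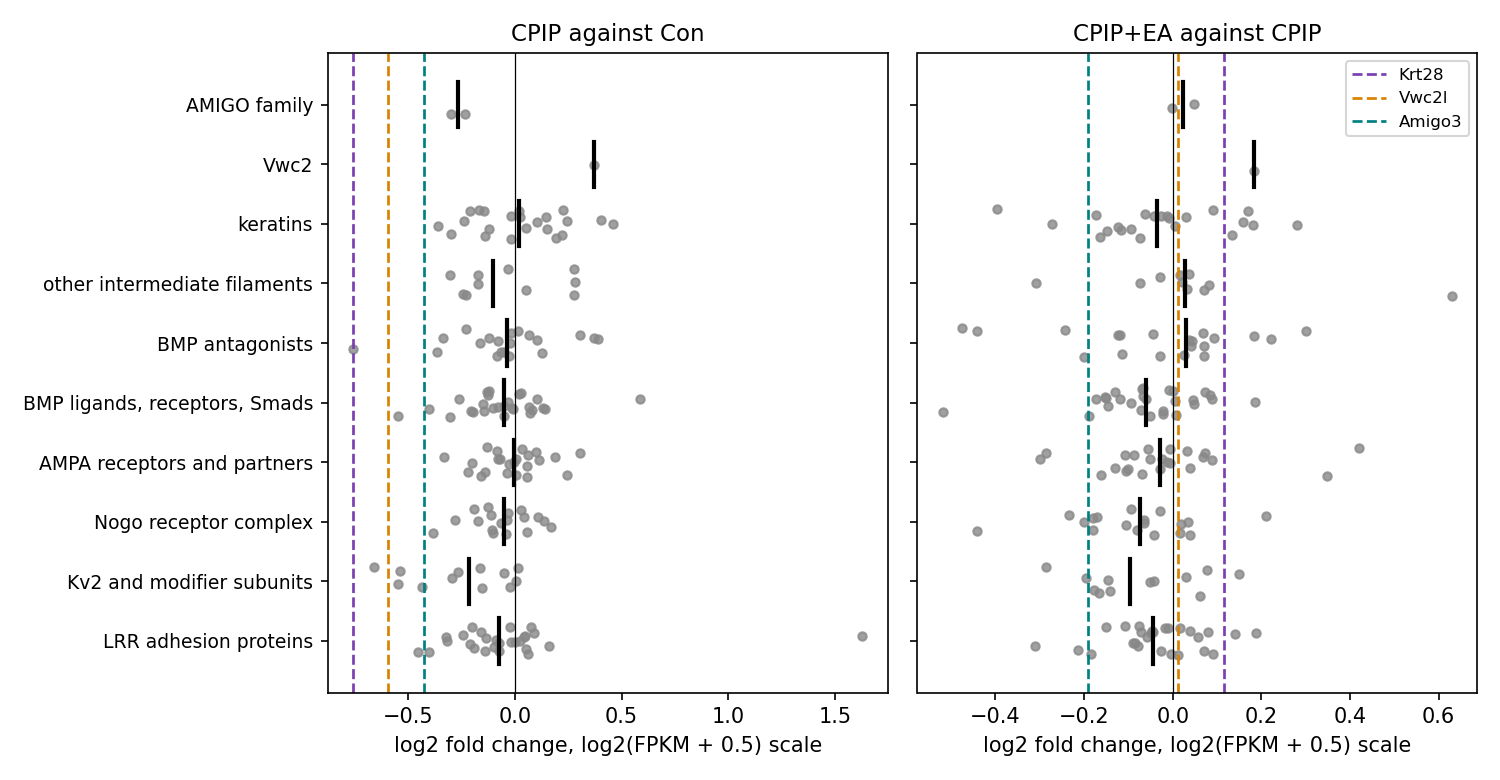
Log2 fold change (horizontal axes, log2(FPKM + 0.5) scale) of each tested gene in the related lists, for CPIP against Con (left) and CPIP+EA against CPIP (right); points are genes, black bars list medians and dashed lines Krt28, Vwc2l and Amigo3. The list medians on the left run from -0.26 for the AMIGO family to 0.37 for Vwc2, and the point at 1.63 is Flrt3.

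The genes whose levels over the 9 libraries were most like each of the 3 were sought among 13914 genes with a mean of at least 1 FPKM, by Pearson r of log2 levels. For Krt28 they were Glb1l2 (r = 0.98), Ccdc171 (0.97) and Zfp521 (0.96). For Vwc2l they were Arap2 (0.97), Synj2 (0.97) and Vamp1 (0.96), the last a synaptic vesicle protein. For Amigo3 they were Disp3 (0.98), Tab3 (0.97) and Egflam (0.97). The libraries are shared by all these values, and much of each r is the difference between Con and the rest. With the group means subtracted, r was 0.46 to 0.60 for the genes like Krt28, 0.46 to 0.75 for those like Vwc2l and 0.69 to 0.90 for those like Amigo3. These genes were picked by r over the same libraries, which includes the deviations from the group means. High values here are therefore favored by the pick and are a description only.

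The start windows of the 3 genes had little in common. Each was searched on both strands for the TATA box TATAAA (14.2% of all windows), the cAMP response element TGACGTCA (1.83%), the AP-1 motif TGANTCA (7.33%), the hypoxia response core ACGTG (19.3%) and the GC box GGGCGG (33.1%), none of which contains another. Krt28 held TATAAA, Vwc2l held TGANTCA with its first base at -152, and in the Amigo3 window, which lies at the first codon, none of these letters occurred. The share of G and C was 43.0% for Krt28, 54.0% for Vwc2l and 56.7% for Amigo3, beside a median of 51.7% over all windows.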

How the data were processed

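RNA was isolated from right L4-6 dorsal root ganglia, and the authors sequenced 1 library for each of 9 samples. They deposited 1 table of FPKM values for 20413 genes, a level per transcript length and library size, given to 2 decimals. Reads were filtered with SOAPnuke per the methods. The genome build and annotation behind the table, and the use of strand in counting, are not given in the sources used here. The 9 columns of the authors' own comparisons (log2 ratios, p-values and q-values) were not used. The table gives no read counts per gene, so no counting interval is printed and precision rests on 3 libraries a group.

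Groups were taken from the labels. Genes with a mean of at least 0.1 FPKM (17187) were tested in limma (version 3.58.1, under R 4.3.3) on log2 values after adding a pseudocount of 0.5 FPKM, using all 9 libraries in 1 fit, a mean-variance trend and Benjamini-Hochberg adjustment over all genes tested. The fit was also run on simulated data with changes planted against Con, and its outcome is not given here. No change was planted between CPIP and CPIP+EA, so that run does not show what difference that comparison could find. Fold changes on this scale understate those of low genes. Exact permutation tests used scipy 1.17.1. The methods name 3 rats a group as the source of the RNA.

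The members, gene lists and tests were chosen with earlier results of these data known. Named genes were the 3 members, list genes called in any comparison, the 2 most abundant genes of each list, family members, keratins with a mean of at least 1 FPKM, neighboring genes, the 3 genes most like each member and the 2 just outside the selection; Nog, Lingo1, Lum, the neuron markers named singly and the 2 just inside it were added after values were seen. 1 abundant list gene is not reported here. Of the gene IDs, 18746 (91.8%) matched RefSeq (GRCr8), used for names, neighbors and start sequences only. Alternatives were other pseudocounts, filters, scalings, spread models, sample sets, a replicate block and leaving out each library.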

Additional observations from a re-analysis of the deposited data

How the results depend on the processing

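Across 21 alternatives, the CPIP minus Con difference (log2) of Krt28 stayed between -0.82 and -0.69, that of Vwc2l between -0.65 and -0.53 and that of Amigo3 between -0.47 and -0.36. In CPIP+EA against Con the ranges were -0.70 to -0.59, -0.62 to -0.54 and -0.69 to -0.57. In CPIP+EA against CPIP none of the 3 was called under any of them. Limma adjusted p was 0.865 to 1 for Krt28, 0.949 to 1 for Vwc2l and 0.632 to 1 for Amigo3. The small difference of Vwc2l changed sign on the TPM scale (-0.0064) and with scaling to neuron markers (-0.029), and ran from -0.023 to 0.067 with 1 library left out. Deviations of same-numbered libraries correlated over 0.1 in 2 of 9 pairs, and those of differently numbered libraries in 5 of 18. Deviations within a group of 3 libraries sum to 0, so these values cannot decide whether same-numbered libraries belong together. A replicate block gave 26 calls in CPIP against Con and 42 in CPIP+EA against Con. A fit of only the 2 groups compared gave 51 calls in CPIP+EA against Con and 1 in CPIP+EA against CPIP. With 1 library left out, 30 to 62, 35 to 82 and 0 to 2 genes were called in CPIP against Con, CPIP+EA against Con and CPIP+EA against CPIP. The cause of these shifts was not tested.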
